A study of Gallus gallus with 10 samples.

Results

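Genes that remodel nucleosomes and write or erase marks on histones and DNA were examined in the embryonic chicken heart. The set holds 59 of the 13009 genes with a named probe set on the array. A gene belonged to it if its array symbol named a SMARC, HDAC, KDM, KMT, DNMT or TET family member or CHD1 to CHD9, or was EZH1, EZH2, EED or SUZ12. The rule reads gene symbols and no expression values, but it was drawn up with earlier results of these data known. Each gene was read through the probe set with the highest mean over all 10 arrays. Chromosome Z held 3 of them (CHD1, SMARCA2 and KDM4C) and autosomes 56, spread over 27 chromosomes with Z. KDM4C was not foreseen as Z-linked when the set was drawn up, but RefSeq's GRCg7b gene table places it there.

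The arrays held total RNA from whole hearts of chicken embryos. The 5 male arrays (A to E) each carried a pool of males and the 5 female arrays (A to E) a pool of females. The sources used here do not give strain, embryonic age or how many embryos made up a pool, and name no treatment other than harvest of the tissue. They also leave unsaid whether pools shared embryos. The p-values therefore rest on pool-to-pool spread, part of which may be technical.

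DNA in the nucleus is wound on histones. Remodellers of the SWI/SNF, ISWI and CHD classes spend ATP to slide or evict nucleosomes, while other enzymes add or remove methyl and acetyl groups that open or close chromatin. In the heart, SWI/SNF subunits work with cardiac transcription factors during chamber formation, and Polycomb and histone deacetylases silence genes of other fates. Birds bear on the dosage of such genes because males carry a pair of Z chromosomes and females a Z and a W, and Z-linked expression is only partly equalised between the sexes.

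Array medians lay between 605 and 735 intensity units. As a check of the sex labels, all 17 genes annotated on W with a probe set were taken, whatever their level or call. Their median intensity was 84.8 to 287 on the male arrays and 2029 to 2869 on the female arrays, so the sexes did not overlap. All 15 measured cardiomyocyte markers passed the filter on low values. Over 9 marker lists (cardiomyocyte, endothelium, fibroblast and epicardium, smooth muscle, erythroid, leukocyte, neural crest, neighbouring tissue and cell cycle), 0 of 76 tested genes were called by limma and 8 had an unadjusted p under 0.05, as did 10.04% of all tested genes. The erythroid list held 3 of these among 8 tested genes (37.5%), and every other list held 0 to 2. HEMGN, among those erythroid genes, lies on Z and was higher in males, while the other erythroid genes with such a p were autosomal. ISL1, taken from the neural crest and ganglion list and on Z, also had such a p but was higher in females, at a log2 ratio of -0.99 ± 0.39. It was dim, at 373 ± 200 in males and 678 ± 174 in females (SD), and the sexes overlapped (limma adjusted p = 0.394). Of tested Z genes 63.0% had such a p. Of the 8 erythroid log2 ratios, male minus female, 2 lay above 0, as did 1 of 15 for cardiomyocytes, whose median was -0.05. Ratios above 0 numbered 5 of 16 for cell cycle, 3 of 9 for endothelium and 1 of 5 for neural crest. They numbered 1 of 3 for neighbouring tissue, 6 of 10 for fibroblast and epicardium, 4 of 7 for leukocyte and 2 of 3 for smooth muscle. Of all tested autosomal genes 41.6% lay above 0. The summed level of each of the 9 lists overlapped between the sexes. In bulk tissue fewer cells of a type and less RNA per cell cannot be told apart.

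Of the 59 genes, 56 passed the filter, which removed the lowest 40% of probe sets. CHD5, KDM2A and KMT2D fell below it, at mean intensities of 137, 134 and 159 in males and 184, 151 and 284 in females, and were not tested. CHD5 is a remodeller gene studied mostly in brain, KDM2A encodes a histone demethylase that binds CpG islands, and KMT2D encodes an enhancer methyltransferase. The filter took the mean log2(intensity + 16) over both sexes, so a gene could pass through 1 sex alone. All 3 Z-linked genes and 53 of the 56 autosomal genes were tested. Ratios are differences of mean log2(intensity + 16), male minus female, with the SE of the limma fit and n = 5 arrays per sex, and a gene was called if its p, adjusted over all 23063 tested probe sets, was under 0.05.

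Of the 56 tested genes of this set, 1 was called. SMARCA2, on Z, was higher in males, and no autosomal member was called in either direction. All 3 Z-linked genes had an unadjusted p under 0.05, as did 63.0% of tested Z genes. In the whole data set 2.0% of the 10283 tested genes were called with males higher and 0.233% with females higher. On Z the share called higher in males was 41.1% of 492 genes, and on autosomes 0.164% of 9764 genes were called in either direction. A count of 1 called gene among 3 on Z, and of 0 called by limma among 53 on autosomes (4 with an unadjusted p under 0.05), is therefore close to what the rest of the array shows.

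**Figure D1:**
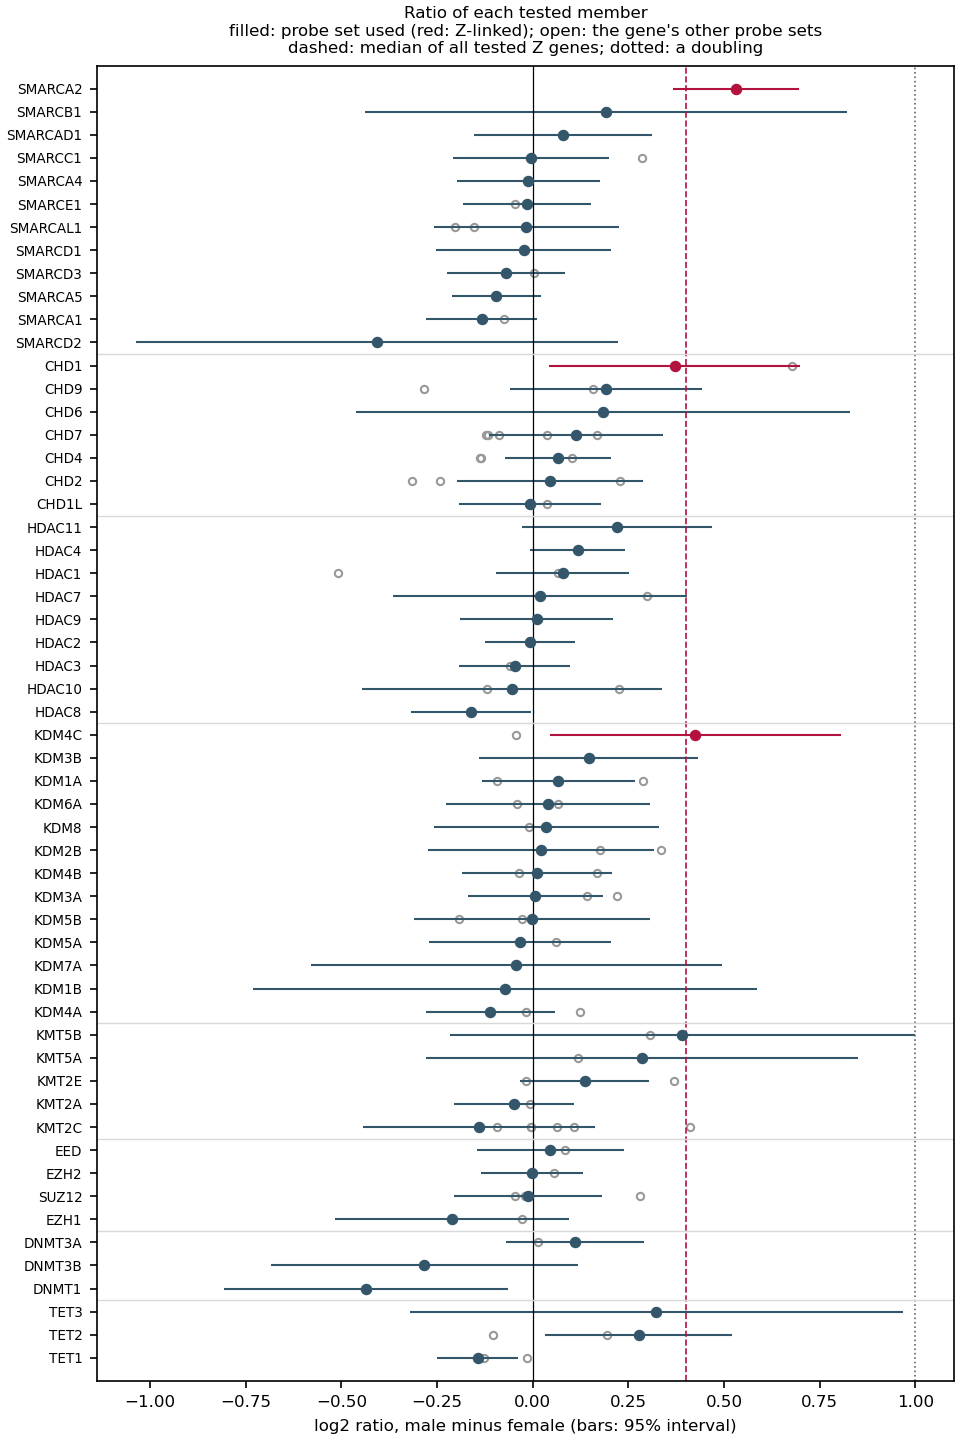
Log2 ratio, male minus female, of the 56 tested genes in family blocks (x axis, log2 units; filled points with 95% limma intervals; red, Z-linked; open points, other probe sets of the same gene above the filter). The dashed line is the median of all tested Z genes, 0.40, and the dotted line a doubling. The 3 Z-linked genes lie near the dashed line, and the autosomal genes lie from -0.44 to 0.39 on both sides of 0.

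SMARCA2 encodes BRM, an ATPase that drives the SWI/SNF (BAF) complex in alternation with its paralog SMARCA4. Its intensity was 16852, 15778, 18322, 17052 and 18230 in male pools A to E and 13185, 11650, 11034, 10399 and 13572 in female pools A to E. Every male pool lay above every female pool, a pattern that 46.1% of Z genes shared. Males averaged 17247 ± 1057 and females 11968 ± 1368 (SD over 5 arrays). The log2 ratio was 0.53 ± 0.08, a 1.45-fold difference with a 95% interval of 0.37 to 0.70 (limma adjusted p = 0.000733). The interval lay above 0 and below 1, the log2 value of a doubling. The ratio exceeded that of 63.2% of tested Z genes. A second SMARCA2 probe set was dim, at 59.6 in males and 26.7 in females, and was below the filter.

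CHD1 encodes a chromodomain remodeller that binds methylated histone H3 at active genes and assists transcription elongation. Its intensity was 2441, 1887, 2002, 2530 and 2132 in males A to E and 2243, 1462, 1490, 2067 and 1347 in females A to E. Female A and female D lay within the male range, so the sexes overlapped. The log2 ratio of 0.37 ± 0.15 (95% interval 0.04 to 0.70, unadjusted p = 0.0289) missed the threshold (limma adjusted p = 0.456). A second CHD1 probe set averaged 1513 in males and 928 in females, a log2 ratio of 0.68 ± 0.18 that also did not pass (limma adjusted p = 0.0981). Both probe sets were thus on the male side of 0, with intervals of 0.04 to 0.70 and 0.29 to 1.07, of which the second reached past a doubling.

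KDM4C encodes a jumonji demethylase that removes methyl groups from histone H3, among them the heterochromatin mark. Its intensity was 2497, 1595, 1787, 1797 and 1874 in males A to E and 2011, 1564, 1199, 998 and 1436 in females A to E. Male A and female A were the highest of their sex, and the sexes overlapped. The log2 ratio was 0.43 ± 0.18 (95% interval 0.04 to 0.81, unadjusted p = 0.0308) and was not called (limma adjusted p = 0.466). A second, dimmer probe set averaged 425 and 415 and had a log2 ratio of -0.04 ± 0.34, so the gene's probe sets did not point the same way.

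The 3 Z-linked genes had a median log2 ratio of 0.43, beside 0.40 for all 492 tested Z genes, of which 89.0% lay above 0. The ratios of CHD1 and KDM4C exceeded those of 47.6% and 51.8% of Z genes. All 3 intervals, at the probe set used, stayed below a doubling. Within a sex, the SD between pools on the log2 scale was 0.132 for SMARCA2, 0.264 for CHD1 and 0.317 for KDM4C. The median for all Z genes was 0.180. With 1 array left out, CHD1 ran from 0.29 without female E to 0.47 without female A and KDM4C from 0.30 without female D to 0.55 without female A. With the mean of probe sets CHD1 was at 0.52 and KDM4C at 0.19. Neither was called in any of these (limma adjusted p from 0.146 to 0.630 for CHD1 and from 0.189 to 0.812 for KDM4C).

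**Figure D2:**
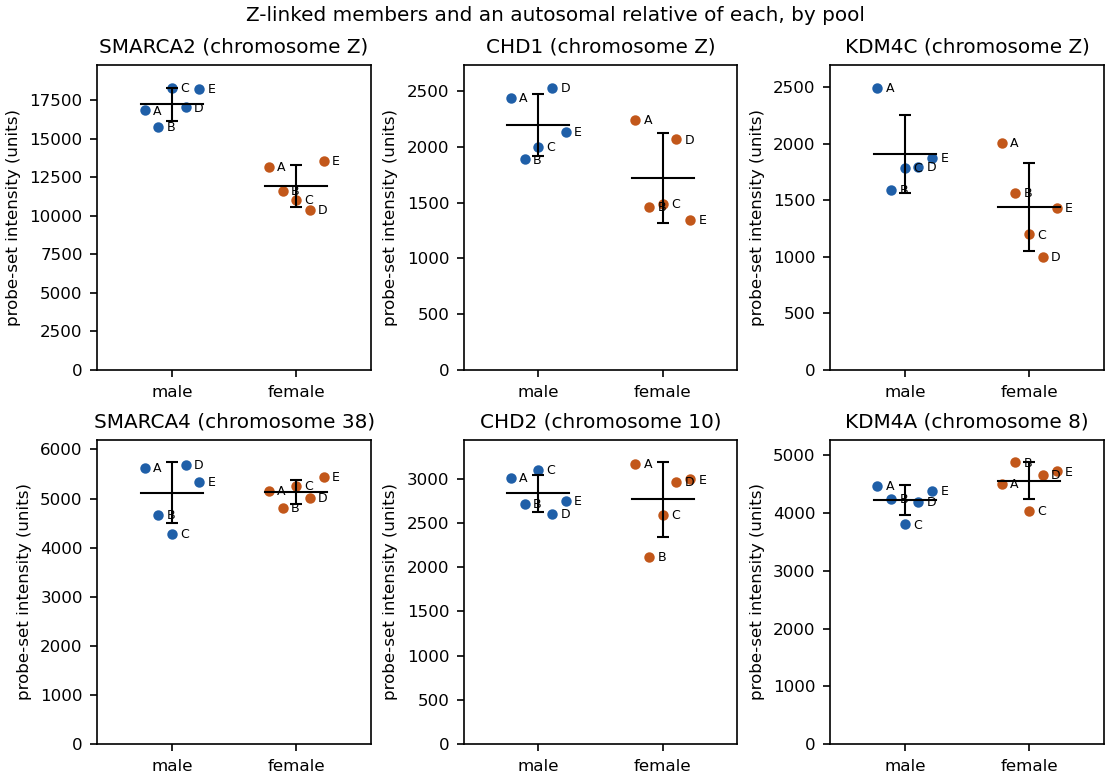
Probe-set intensity (y axis, deposited units, from 0) of SMARCA2, CHD1 and KDM4C on Z in the top row and of their autosomal relatives SMARCA4, CHD2 and KDM4A below, in each male and female pool A to E (points; line and bars, mean and SD). All 5 male points of SMARCA2 lie above the female points, those of CHD1 and KDM4C overlap, and the relatives have log2 ratios from -0.11 to 0.05.

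Each Z-linked gene has an autosomal relative of the same class in the set, and the difference between the pair within an array does not depend on how whole arrays were scaled. Log2 SMARCA2 minus log2 SMARCA4 was 1.58, 1.75, 2.09, 1.58 and 1.77 in males A to E and 1.35, 1.27, 1.07, 1.05 and 1.32 in females A to E. All 5 male values lay above all 5 female values, by 0.54 ± 0.11 on average (SE; two-sided exact permutation test over all arrangements of the 10 arrays, p = 0.00794, the smallest possible; adjusted p = 0.0238 over 3 pairs). SMARCA4, the alternative ATPase on chromosome 38, had itself a ratio of -0.01 ± 0.09, averaging 5121 in male and 5133 in female pools. The sign of that ratio is not settled, since its interval ran from -0.20 to 0.18.

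The pair of jumonji demethylases differed less evenly. Log2 KDM4C minus log2 KDM4A was -0.84, -1.40, -1.08, -1.21 and -1.22 in males and -1.16, -1.63, -1.74, -2.20 and -1.71 in females. Female A lay inside the male range. The sexes differed by 0.54 ± 0.19 (exact permutation test, p = 0.0317, adjusted p = 0.0476 over 3 pairs). That call was lost in 8 of the 10 analyses with 1 array left out, all except those without female A or male B. Over these 10 analyses the adjusted p of the exact permutation test ran from 0.0119 to 0.0833. With the mean of each gene's probe sets the difference was 0.19 and did not pass (exact permutation test, adjusted p = 0.349). KDM4A, on chromosome 8, had a ratio of -0.11 ± 0.08.

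Log2 CHD1 minus log2 CHD2 was -0.30, -0.52, -0.62, -0.04 and -0.37 in males and -0.50, -0.53, -0.79, -0.52 and -1.14 in females. The values overlapped and the difference of 0.33 ± 0.16 did not pass (exact permutation test, p = 0.0714, adjusted p = 0.0714 over 3 pairs). With the mean of each gene's probe sets it was 0.60 and passed (exact permutation test, adjusted p = 0.0238). CHD2, a remodeller of the same subfamily on chromosome 10, had a ratio of 0.05 ± 0.11. Its 4 probe sets above the filter ran from -0.31 to 0.23. Of the 3 pairs, SMARCA2 with SMARCA4 was the one whose call held in each analysis that left out an array. Its sexes did not overlap, so leaving out an array could not remove that call. The mean of probe sets left this pair unchanged, as each gene had 1 probe set above the filter. With the letters as a replicate block none of the 3 pairs passed (exact sign flips, adjusted p = 0.0625 for each, the smallest possible).

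**Figure D3:**
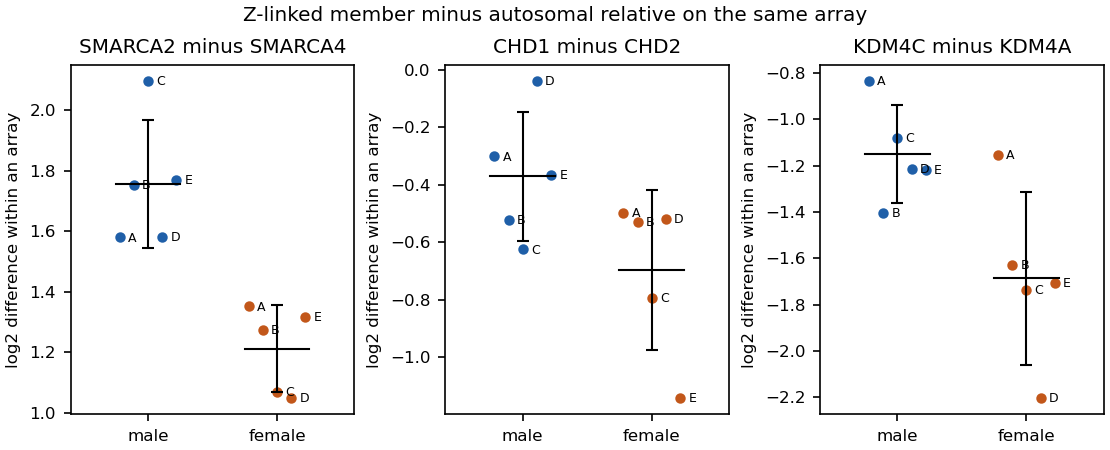
Log2 difference within an array between each Z-linked gene and its autosomal relative (y axes, log2 units, each on its own range), in male and female pools A to E (points; line and bars, mean and SD). The sexes separate for SMARCA2 minus SMARCA4, with males from 1.58 to 2.09 and females from 1.05 to 1.35, and overlap in the other panels.

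Females also carry a copy of CHD1 on W. The array names it LOC374195, with CHD1W as a RefSeq synonym, so it lies outside the set's rule. Its brightest probe set read 2869, 2387, 4401, 1874 and 2255 in females A to E and 27.5, 25.17, 318, 209 and 12.5 in males A to E. Males have no W, and their values were dim and uneven, with male C and male D above the rest. The probe set passed the filter through the female arrays, so no test or ratio is given. Its other probe sets were below the filter, at means of 1296 (female) against 79.2 (male) and 342 against 60.8. Whether the CHD1 probe sets also read the W transcript in females was not tested.

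**Figure D4:**
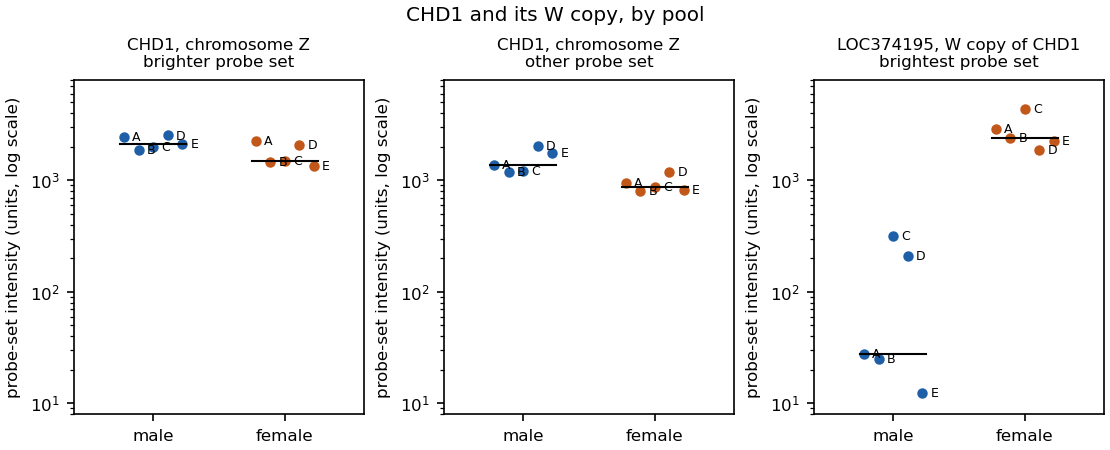
Probe-set intensity (y axis, deposited units, log scale) of both CHD1 probe sets and of the brightest probe set of LOC374195, the W copy of CHD1, in male and female pools A to E (points; line, median). Male values of CHD1 tend to be above female ones but overlap them, while the W copy reads 1874 to 4401 in females and 12.5 to 318 in males.

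The 53 tested autosomal genes were centred on 0. Their median log2 ratio was -0.0014, the quartiles were at -0.05 and 0.08, and 26 of the 53 (49.1%) were above 0. All 9764 tested autosomal genes had a median of -0.03, with 41.6% above 0. Without male E the members' median was 0.03. An unadjusted p under 0.05 was found for 4 of the 53 (7.55%), namely DNMT1, HDAC8, TET1 and TET2, beside 7.25% of all autosomal genes. Arrays of the sexes did not overlap for 1 of the 53 (1.89%), TET1, beside 1.59% of all autosomal genes.

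The precision of these comparisons varied with the gene. The 95% interval of the ratio stayed within 1.5-fold in either direction for 44 of the 53 autosomal genes, and within 1.2-fold for 21. It stayed within 2-fold for all but SMARCD2, whose interval ran from -1.04 to 0.22. Of all 9764 tested autosomal genes, 7421 had intervals within 1.5-fold, 3127 within 1.2-fold and 9104 within 2-fold. The median SD between pools of a sex was 0.173 on the log2 scale, against 0.181 for all autosomal genes. For the 37 genes with 2 or more probe sets above the filter, all probe sets lay on 1 side of 0 in 16 and on both sides in 21, so the sign of a small ratio often depended on the probe set.

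In the SMARC family, 11 autosomal members had a median of -0.02, with 2 above 0 and 0 called by limma (0 also had an unadjusted p under 0.05). SMARCE1, a DNA-binding BAF subunit, had the highest mean of the family. It read 23309, 23531, 22935, 22010 and 18448 in males A to E and 25016, 21106, 23376, 19708 and 22089 in females A to E. Male E was the lowest array and the others mixed, with a ratio of -0.01 ± 0.08. SMARCD2, a BAF subunit known for granulocyte development, had the lowest ratio of the family. It read 568, 306, 592, 341 and 252.3 in males A to E and 511, 493, 537, 661 and 431 in females A to E. Males B, D and E lay below all females, and the ratio was -0.41 ± 0.30 (limma adjusted p = 0.754), or -0.26 without male E. Over 18 alternatives it ran from -0.55 to -0.26.

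The other BAF subunits lay close to 0 or were loosely measured. SMARCC1, a scaffold subunit, had a ratio of -0.00 ± 0.10, SMARCD1 -0.02 ± 0.11 and the cardiac and muscle subunit gene SMARCD3 -0.07 ± 0.07. SMARCB1, a core subunit, was at 0.19 ± 0.30, the highest autosomal ratio of the family. The ISWI ATPase genes SMARCA5 and SMARCA1 were at -0.09 ± 0.06 and -0.13 ± 0.07, both with intervals that included 0 (-0.21 to 0.02 and -0.28 to 0.01). SMARCAL1, an annealing helicase of replication forks, was at -0.02 ± 0.11 and SMARCAD1, a remodeller of replicated chromatin, at 0.08 ± 0.11. SMARCA2, the 1 Z-linked gene of this family, was called, where 41.1% of tested Z genes were called higher in males. The 11 autosomal members were not called, where 0.164% of tested autosomal genes were.

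The 6 autosomal CHD genes had a median of 0.09, 5 of them above 0, and 0 were called by limma (0 also had an unadjusted p under 0.05). CHD4 is the ATPase of the NuRD corepressor complex, which represses non-cardiac genes in heart muscle. It read 11561, 11117, 10394, 10629 and 10256 in males A to E and 9859, 10510, 10948, 11020 and 9264 in females A to E. The sexes overlapped, with a ratio of 0.07 ± 0.07. CHD9 was at 0.19 ± 0.12, CHD6 at 0.18 ± 0.30 and CHD7, whose human mutations cause CHARGE syndrome with heart defects, at 0.11 ± 0.11. CHD1L, a remodeller recruited by poly(ADP-ribose), was at -0.01 ± 0.09. CHD4 turned to -0.03 with the mean of its probe sets.

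Histone deacetylase genes had a median SD between pools of 0.117 within a sex on the log2 scale, against 0.181 for all autosomal genes. HDAC7 (0.304), HDAC10 (0.235) and HDAC11 (0.216) lay above that autosomal median. All 9 intervals stayed within 1.5-fold, as did 7421 of those of all 9764 tested autosomal genes. Of the 9 genes 0 were called by limma, beside 0.164% of all autosomal genes. An unadjusted p under 0.05 was found for 1 (11.1%), beside 7.25%. HDAC2, a class I enzyme of corepressor complexes, read 34536, 32967, 34962, 33774 and 34038 in males A to E and 36810, 32594, 37036, 31400 and 33573 in females A to E. The male values lay inside the female range, and the ratio was -0.01 ± 0.06. The other class I genes HDAC1 and HDAC3 were at 0.08 ± 0.08 and -0.05 ± 0.07. HDAC8, also class I and autosomal in the chicken, averaged 9899 in males and 11045 in females. Male D, at 11654, was the exception among males, of which the other 4 read 9148 to 9721 and lay below all 5 females, at 10401 to 12031. Its ratio was -0.16 ± 0.07 (unadjusted p = 0.0458, limma adjusted p = 0.536).

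The deacetylases of class IIa bind MEF2 transcription factors and restrain growth genes in heart muscle. Of these, HDAC4 was at 0.12 ± 0.06 (95% interval -0.01 to 0.24), HDAC7 at 0.02 ± 0.18 and HDAC9 at 0.01 ± 0.09. HDAC10, of class IIb, was at -0.05 ± 0.18. HDAC11, of a class of its own, had the highest ratio of the family, 0.22 ± 0.12. None of these 5 passed the threshold.

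The 12 tested autosomal histone demethylase genes ran from -0.11 to 0.15, with a median of 0.01 and 7 above 0. At the probe set used, none was called by limma and 0 had an unadjusted p under 0.05. KDM3A, which removes a repressive methyl mark and responds to hypoxia, had the highest mean of the family. It read 9527, 10015, 11021, 11827 and 9783 in males A to E and 11289, 10239, 9515, 11762 and 9182 in females A to E. The sexes covered nearly the same range, with a ratio of 0.01 ± 0.08. Its other probe sets above the filter were at 0.22 ± 0.10 and 0.14 ± 0.24. The former had an interval of 0.02 to 0.42 (unadjusted p = 0.0354, limma adjusted p = 0.493). With the mean of probe sets KDM3A was at 0.12. KDM1A, the amine oxidase LSD1, was at 0.07 ± 0.09 and its relative KDM1B at -0.07 ± 0.31. KDM4B, another relative of KDM4C, was at 0.01 ± 0.09. KDM6A, a demethylase of the Polycomb mark that is X-linked in mammals and autosomal in the chicken, was at 0.04 ± 0.12. The remaining members, KDM2B, KDM3B, KDM5A, KDM5B, KDM7A and KDM8, lay between -0.04 and 0.15.

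Histone lysine methyltransferase genes of the KMT2 and KMT5 groups were not called either. Of 5 tested, at the probe set used, 0 were called by limma and 0 had an unadjusted p under 0.05. KMT2E, a relative of the trithorax genes, had the highest mean. It read 10788, 10377, 10121, 9725 and 9612 in males A to E and 10628, 9965, 9190, 7858 and 8657 in females A to E. Females C, D and E lay below all males, and the ratio was 0.14 ± 0.08 (limma adjusted p = 0.668). It was 0.08 without female D and 0.19 without female A. Its other probe sets above the filter were at -0.02 ± 0.09 and 0.37 ± 0.17, the latter with unadjusted p = 0.0462 (limma adjusted p = 0.537). KMT2A and KMT2C, which methylate histone H3 at promoters and enhancers, were at -0.05 ± 0.07 and -0.14 ± 0.14. The 7 KMT2C probe sets ran from -0.14 to 0.41.

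KMT5A and KMT5B methylate histone H4 in compacting chromatin and had 2 of the 3 highest autosomal ratios of the set. KMT5B read 741, 1163, 1519, 956 and 1081 in males A to E and 1113, 411, 703, 1377 and 766 in females A to E. KMT5A read 1480, 1118, 1343, 1216 and 885 in males A to E and 1091, 439, 1406, 1024 and 1259 in females A to E. Female B was the lowest array for both, and the sexes overlapped widely. The ratios were 0.39 ± 0.28 for KMT5B and 0.29 ± 0.26 for KMT5A, with limma adjusted p of 0.756 and 0.822. Without female B they were 0.15 and 0.0059. The highest over the alternatives were 0.58 for KMT5B, without female D, and 0.42 for KMT5A, without female C. In the main fit both intervals included 0, so those sizes were within the spread between pools.

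Polycomb repressive complex 2 places a silencing methyl mark on histone H3 through EZH2 or EZH1, with EED and SUZ12 as partners. All 4 intervals stayed within 1.5-fold, as did 7421 of those of all 9764 tested autosomal genes. Of the 4 genes 0 were called by limma and 0 had an unadjusted p under 0.05. EZH2, the catalytic subunit of dividing cells, read 17783, 18649, 19006, 16413 and 16773 in males A to E and 16745, 16293, 18702, 18590 and 18439 in females A to E. Its ratio was -0.00 ± 0.06, with an interval of -0.14 to 0.13. EED was at 0.05 ± 0.09 and SUZ12 at -0.01 ± 0.09. EZH1, the subunit prominent in non-dividing cells, was at -0.21 ± 0.14.

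DNA methylation genes held the lowest autosomal ratio of the set. DNMT1, the maintenance methyltransferase, read 1182, 703, 1105, 1067 and 1479 in males A to E and 1449, 1422, 1621, 1471 and 1363 in females A to E. Males A to D lay below all females, with male B the lowest, while male E lay within the female range. The ratio of -0.44 ± 0.17 (95% interval -0.81 to -0.06, unadjusted p = 0.0244) missed the threshold (limma adjusted p = 0.425). It was -0.28 without male B and ran from -0.55 to -0.28 over 19 alternatives. DNMT3B, a de novo enzyme, read 1676, 1535, 1992, 1585 and 1491 in males A to E and 3036, 1982, 2117, 2089 and 1220 in females A to E. Female A was the highest array and female E the lowest, and the ratio was -0.28 ± 0.19. It was -0.13 without female A and -0.46 without female E. DNMT3A, the other de novo enzyme, read 6546, 6119, 5778, 6331 and 6632 in males A to E and 6626, 6002, 6304, 5042 and 5251 in females A to E. Its ratio was 0.11 ± 0.08 (0.06 without female D and 0.16 without female A).

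TET enzymes oxidise methylated cytosine, the first step of its removal. TET1 read 18541, 18077, 17429, 19122 and 17488 in males A to E and 20404, 19643, 20347, 19515 and 20198 in females A to E. All 5 females lay above all 5 males, by a narrow margin between 19122 and 19515. The ratio was -0.14 ± 0.05 (95% interval -0.25 to -0.04, unadjusted p = 0.0111) and missed the threshold (limma adjusted p = 0.300). Its 2 other probe sets were at -0.02 ± 0.07 and -0.13 ± 0.10. TET3 read 575, 607, 617, 820 and 475 in males A to E and 368, 250, 582, 676 and 722 in females A to E. Females A and B were low, and the ratio of 0.32 ± 0.30 was not called (limma adjusted p = 0.823). It was below the SD between pools of a sex, 0.485 on the log2 scale. Without female B the ratio was 0.096, and without female E it was 0.46.

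TET2, often mutated in human blood cancers, read 3808, 3080, 3436, 4378 and 3388 in males A to E and 2890, 3448, 2405, 3099 and 3067 in females A to E. Female B lay above 3 of the males. The ratio was 0.28 ± 0.11 (unadjusted p = 0.0288, limma adjusted p = 0.456), and its other probe sets above the filter were at 0.19 ± 0.10 and -0.10 ± 0.26. None of the DNMT and TET genes was called by limma. An unadjusted p under 0.05 was found for 1 of 3 DNMT and 2 of 3 TET genes, beside 7.25% of all autosomal genes. DNMT1 and TET1 were lower in males and TET2 was higher. These 3 are the same genes counted among the 53 above, where the share was 7.55%.

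**Figure D5:**
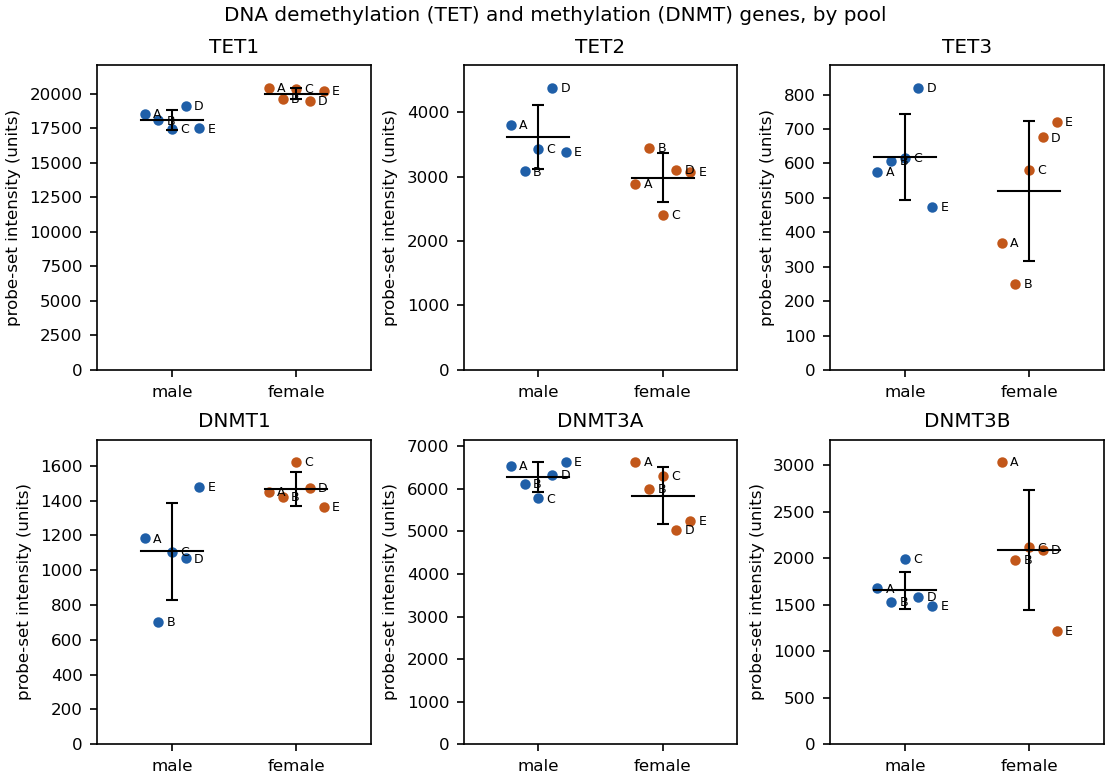
Probe-set intensity (y axes, deposited units, from 0, each on its own range) of the 3 TET and 3 DNMT genes in male and female pools A to E (points; line and bars, mean and SD). TET1 is the panel in which the sexes do not overlap, with females from 19515 to 20404 and males from 17429 to 19122, and in DNMT1 male B lies lowest at 703.

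Genes that work with these families were described from 9 lists covering 185 genes, of which 134 had a probe set and 126 were tested. None was called by limma, and 10 (7.94%) had an unadjusted p under 0.05, all of them autosomal, where 7.25% of all autosomal genes did. Arrays of the sexes did not overlap for 5 autosomal partner genes (4.03%), 4 of them higher in females, beside 1.59% of all autosomal genes. The 124 autosomal partner genes had a median of -0.03 with 41.1% above 0, beside -0.03 and 41.6% for all autosomal genes. By list, autosomal medians ran from -0.12 for 6 sirtuins to 0.02 for 17 Polycomb partners. The BAF and PBAF partner subunits had a median of -0.00 over 13 tested genes, 6 of them above 0, all autosomal. Deacetylase corepressor partners had a median of -0.05 over 19 and histone acetyltransferases -0.03 over 19. Other histone methyltransferases and COMPASS subunits had a median of -0.07 over 18, with 4 (22.2%) at an unadjusted p under 0.05 against that 7.25%. ISWI, INO80 and SRCAP class partners were at 0.02 over 18, other jumonji proteins at -0.08 over 10 and DNA methylation readers and partners at -0.05 over 9.

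Only 2 partner genes above the filter lay on Z. PCGF3, a subunit of a variant Polycomb complex, read 937, 991, 1077, 676 and 1127 in males A to E and 973, 751, 493, 1078 and 704 in females A to E. UHRF2, a reader of modified DNA and histones, read 4455, 4240, 3425, 4195 and 4761 in males A to E and 4687, 3169, 3406, 3098 and 3582 in females A to E. The sexes overlapped for both genes. Their ratios were 0.29 ± 0.23 and 0.24 ± 0.12 (limma adjusted p = 0.777 and 0.578), both below the Z median of 0.40.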

How the data were processed

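The deposited values are linear probe-set intensities, 1 per array. From those intensity values, the mean after trimming 2% at each end was 2500.5 to 2500.6 throughout, which shows a common scaling. The authors' software and summarisation were not given in the sources used here. Correlations between arrays were 0.946 to 0.971, and no 2 arrays were identical. No detection calls were used, so a dim probe set may be background. Precision is limited by the number of arrays.

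Of 38535 probe sets, 27178 had 1 symbol in the platform annotation, 177 had more than 1 and stayed unnamed, and 11180 were not listed. Chromosomes came from the RefSeq GRCg7b table (26863 matched by gene ID, 308 by symbol, 7 not). No coordinates or sequences are given, as no genome was used here. A probe set listed with SMARCC1 and a second gene was left out.

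Values were analysed as log2(intensity + 16), which understates changes of dim probe sets. The 96 control probe sets and the lowest 40% by mean were left out. Males and females were compared in limma 3.58.1 under R 4.3.3 (lmFit, trended eBayes), with p-values adjusted by Benjamini-Hochberg over 23063 probe sets. Pairs were tested by exact permutation, adjusted over 3. The procedure was tested on simulated data. The members and lists were chosen with earlier results of these data known. Every array is given for Z-linked and called members, the 3 highest and 3 lowest autosomal ratios and each family's highest mean, and TET2 and HDAC8 were added after their values were seen. From the partner lists, called and Z-linked genes were to be named. Alternatives were quantile normalization, the letters as a replicate block, other filters and pseudocounts, autosomal centring, no variance trend, the mean of probe sets and each array left out.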

Additional observations from a re-analysis of the deposited data

Results flagged for a closer look

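Among the 56 tested genes, 8 of 112 groups of 5 arrays held 1 array far from the other 4 (Dixon's ratio above 0.71), where chance gives about 1 group in 20. Female B stood apart in 3 of them: lowest for KMT5A at 439 (others 1024 to 1406) and for SMARCAD1 at 1877 (others 2266 to 2441), and highest for CHD1L at 2935 (others 2563 to 2662). Female E was lowest for KDM1B at 256 (others 532 to 638) and female C for KDM5B at 1310 (others 1483 to 1554). Among males, B was lowest for CHD7 at 5001 (others 5942 to 6261), E was lowest for SMARCE1 at 18448 (others 22010 to 23531), and D was highest for HDAC8 at 11654 (others 9148 to 9721). None of these genes was called.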

How the results depend on the processing

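SMARCA2 was the 1 member called under every alternative run, with a log2 ratio of 0.48 to 0.58 and limma adjusted p from 0.000461 to 0.0157 over 19 alternatives. Over all probe sets 407 were called, and 302 to 420 under the alternatives (336 to 398 with 1 array left out). The 302 came from the mean of probe sets, which tested 15132 genes and unnamed probe sets in place of 23063 probe sets. The number tested also changed with the filter. In the main fit the male-higher and female-higher calls numbered 348 and 59. The letters A to E were not used to pair the sexes in the main fit, since no label says what they mark. Deviations from the sex means correlated between same-letter arrays at 0.177, 0.057, 0.002, 0.1 and 0.207, not all above 0.1. Of the 5 male arrays, 4 correlated best with the female array of their own letter. Whether the letters mark a pairing is not settled. With the letter as a replicate block 405 probe sets and 1 member were called. The pairs SMARCA2 with SMARCA4 (0.54), KDM4C with KDM4A (0.54) and CHD1 with CHD2 (0.33) each had adjusted p = 0.0625. That is the smallest that exact sign flips of 5 letter pairs allow. With the mean of probe sets CHD1 minus CHD2 passed at 0.60 and KDM4C minus KDM4A did not at 0.19, while with 1 array left out the latter was 0.41 to 0.67. The autosomal members' median was -0.014 to 0.029 with 1 array left out. Ratios near 0 that were not called changed sign. Centring on autosomal genes gave 0.013 for EZH2, 0.0086 for HDAC2 and 0.00078 for SMARCE1. The mean of probe sets gave 0.026 for EZH2 and -0.026 for CHD4, and quantile normalization -0.0049 for KDM3A. With the mean of probe sets KDM3A stayed above 0, at 0.12. With 1 array left out EZH2 was -0.033 to 0.025, HDAC2 -0.038 to 0.022, SMARCE1 -0.057 to 0.048 and KDM3A -0.039 to 0.053. The cause was not tested. Choosing members by RefSeq symbol gave the same 59 genes, so it has no separate values.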
